A study of Mus musculus with 8 samples.

Results

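Mouse neurospheres kept in rcCHIL3 were compared at 7 days against 3 days on 4 arrays, 2 for each day. NSCs, neural stem cells, are cells of the brain that renew themselves and give rise to neurons, astrocytes and oligodendrocytes, and in suspension they grow as floating balls called neurospheres. The study asked how the secreted protein CHIL3, named ECF-L in the sample labels, acts on NSCs, and cultured secondary neurospheres for 3 or 7 days with rcCHIL3 or with MHM + GF. According to the methods, rcCHIL3 is MHM, a serum-free medium hormone mix, conditioned by HEK293T cells transfected with Chil3, and MHM + GF is the same mix with the growth factors EGF and FGF-2. The 4 groups were thus rcCHIL3 at 3 days, rcCHIL3 at 7 days, MHM + GF at 3 days and MHM + GF at 7 days, with 2 arrays each from 2 independent experiments. Neither the labels nor the methods say whether EGF and FGF-2 were also in the rcCHIL3 medium of the arrays. The paper writes rcCHIL3 + GF for a neurosphere assay and plain rcCHIL3 for the arrays. The design text gives adult mouse brain as the source of the cells, whereas the methods name embryonic or adult forebrain for neurospheres, so the age of the source is not settled. No genetic modification of the NSCs is named, and each array holds the RNA of a whole culture. The day of harvest is also the length of the culture, and these cannot be told apart.

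Each probe set of the Affymetrix array, a group of short probes read together, gave a signal, a fluorescence intensity on a linear scale, here with the mean of each array set to 100. Members were the probe sets with at least 2 of the 4 rcCHIL3 arrays at or above 50, hereafter the limit. These were 14348 of 45101 probe sets, and 12881 of them carried the name of 1 gene, for 8376 genes with a representative probe set among them, of 18161 genes on the array. Of the members, 12442 reached 50 on all 4 arrays, 449 only on both arrays of 3 days and 562 only on both arrays of 7 days. Members that reached 50 on one day alone had to differ between the days to a certain extent, and where they weigh in a list this is stated. The precision was limited by 2 arrays a group, and the p-values measure the spread between these cultures. Where the arrays of the 2 days are said not to overlap, this describes single genes, and its share over all members was not counted. Many genes without a call also meet it. Of 34 genes of oxidative phosphorylation, 16 were higher and 6 lower at 7 days without overlap, while 3 rose and 1 fell in the limma fit.

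Arrays of 1 group correlated with r of 0.992 to 0.994 across probe sets, and rcCHIL3 arrays of different days with r of 0.946 to 0.948. As to the labelled cell type, Sox2, a transcription factor of neural stem cells, had signals of 1685 and 1770.2 at 3 days and 1949 and 1817 at 7 days, whereas Nes, the intermediate filament nestin, stayed under the limit at 24.6 and 25.1 at 3 days and 21.9 and 21 at 7 days. No member of the microglia and macrophage list (13 genes on the array) or of the endothelial list (12 genes) reached the limit. Their summed signals were 59.8 to 92.1 and 54.1 to 96.4 on the rcCHIL3 arrays, and Aif1 and Pecam1 were among the genes under it. The signals of bulk RNA do not tell a lower number of cells of a type from less RNA per cell.

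Between 3 and 7 days in rcCHIL3, genes of glycolysis and the response to hypoxia became more abundant, whereas genes of oligodendrocyte progenitors, young neurons and cholesterol synthesis became less abundant. The measured genes of ciliated ependymal cells were higher and most of those of mitosis lower at 7 days, but 5 of 7 and 9 of 14 of them reached the limit only on the day on which they were high, which fixes their direction. In limma, 2671 probe sets rose (18.6% of those tested) and 2602 fell (18.1%), so 36.8% changed at an adjusted p under 0.05. By genes, 1734 rose and 1496 fell, or 20.7% and 17.9% of 8376, and these shares are the background for the lists. Changes of at least 2-fold on the log2(signal + 20) scale were called for 242 probe sets that rose and 205 that fell, and the median change of all members was 0.00. The split of the calls differed on the deposited scale, where the limit kept 21755 probe sets in place of 14348. There 3644 probe sets rose and 1614 fell, with a median change of 0.10, and 69.3% of the calls were rises in place of 50.7%. Scale and members changed together there, and their parts were not told apart. The methods' t-test on the same values called 0 rises and 0 falls after Benjamini-Hochberg adjustment (2383 and 2201 at an unadjusted p under 0.05), and in limma 1722 rose without array 2 of 3 days and 1656 fell without array 1 of 3 days.

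**Figure D1:**
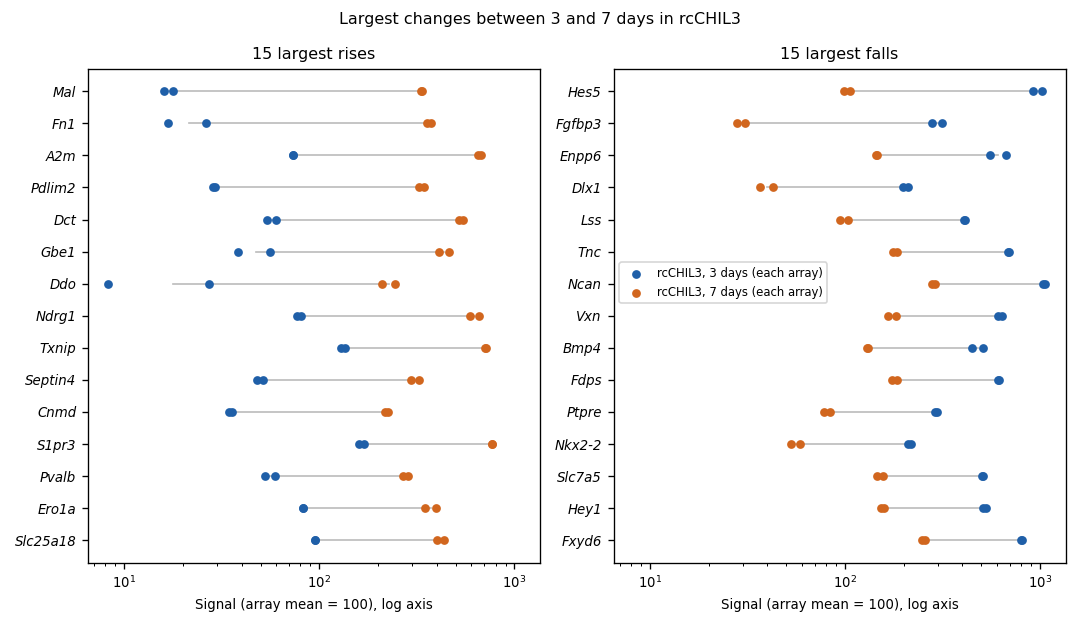
Signals of the 15 genes with the largest rises (left) and the 15 with the largest falls (right) from 3 to 7 days in rcCHIL3, on a log axis. Each point is 1 array and the line joins the means of the days. The arrays of different days do not overlap for any of the 30 genes because this was a condition of their choice.

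The genes with the largest rises were of varied function. Mal, a membrane protein of myelin, had signals of 17.7 and 16.1 at 3 days and 338 and 330.4 at 7 days. Both arrays of 7 days lay far above those of 3 days, and on the log2(signal + 20) scale Mal rose by 3.26 ± 0.14 (SE, n = 2 arrays per day, limma adjusted p = 6.51e-08). Fn1, fibronectin of the extracellular matrix, had signals of 26.4 and 16.7 at 3 days and 355 and 375 at 7 days, a rise of 3.22 ± 0.11 (limma adjusted p = 1.30e-08). A2m, the protease inhibitor alpha-2-macroglobulin, was measured at 73.6 and 73 at 3 days and 676 and 654 at 7 days and rose by 2.88 ± 0.06 (limma adjusted p = 7.76e-10). The replicates of A2m agreed closely, so the days stood apart by many times their spread. Other members of this group were Pdlim2, a PDZ and LIM domain protein (from 28.7 to 335), Dct, dopachrome tautomerase of melanin synthesis (from 56.9 to 534), and Txnip, the thioredoxin-interacting protein (from 132 to 710.4). Ddo, which oxidizes D-aspartate, rose from 17.7 to 228, Septin4 from 49.6 to 309, Cnmd from 35 to 221, Pvalb, the calcium-binding parvalbumin, from 56 to 277, S1pr3, a receptor of sphingosine-1-phosphate, from 164 to 765, and Slc25a18, a mitochondrial glutamate carrier, from 95.5 to 418. Gbe1, Ndrg1 and Ero1a, the other genes of the 15, belong to glycolysis and hypoxia.

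Among the falls, Hes5, a transcriptional repressor and direct target of Notch, stood first. It was measured at 921 and 1025 at 3 days and 106 and 98.9 at 7 days. Both arrays of 7 days were far below those of 3 days, and Hes5 fell by 3.02 ± 0.12 (limma adjusted p = 3.61e-08). Fgfbp3, an FGF-binding protein, had signals of 281 and 316 at 3 days and 28 and 30.7 at 7 days and fell by 2.69 ± 0.09 (limma adjusted p = 1.30e-08). Genes of the brain's extracellular matrix were in this group. Tnc, tenascin C, fell from 684 and 691 to 185 and 176, a change of -1.82 ± 0.06 (limma adjusted p = 1.98e-08), and Ncan, the proteoglycan neurocan, from 1059.7 and 1032 to 289.7 and 281, a change of -1.80 ± 0.06 (limma adjusted p = 1.30e-08). In both genes the lowest array of 3 days was above 3 times the highest array of 7 days. Vxn, vexin, fell from 625 to 174, Ptpre, a tyrosine phosphatase, from 291 to 80.7, and Fxyd6, a regulator of the sodium pump, from 803 to 252. Slc7a5, a carrier of large neutral amino acids, fell from 507 to 151. The remaining genes of the 15 were Enpp6, Bmp4, Nkx2-2, Dlx1, Hey1, Lss and Fdps, described with their groups.

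**Figure D2:**
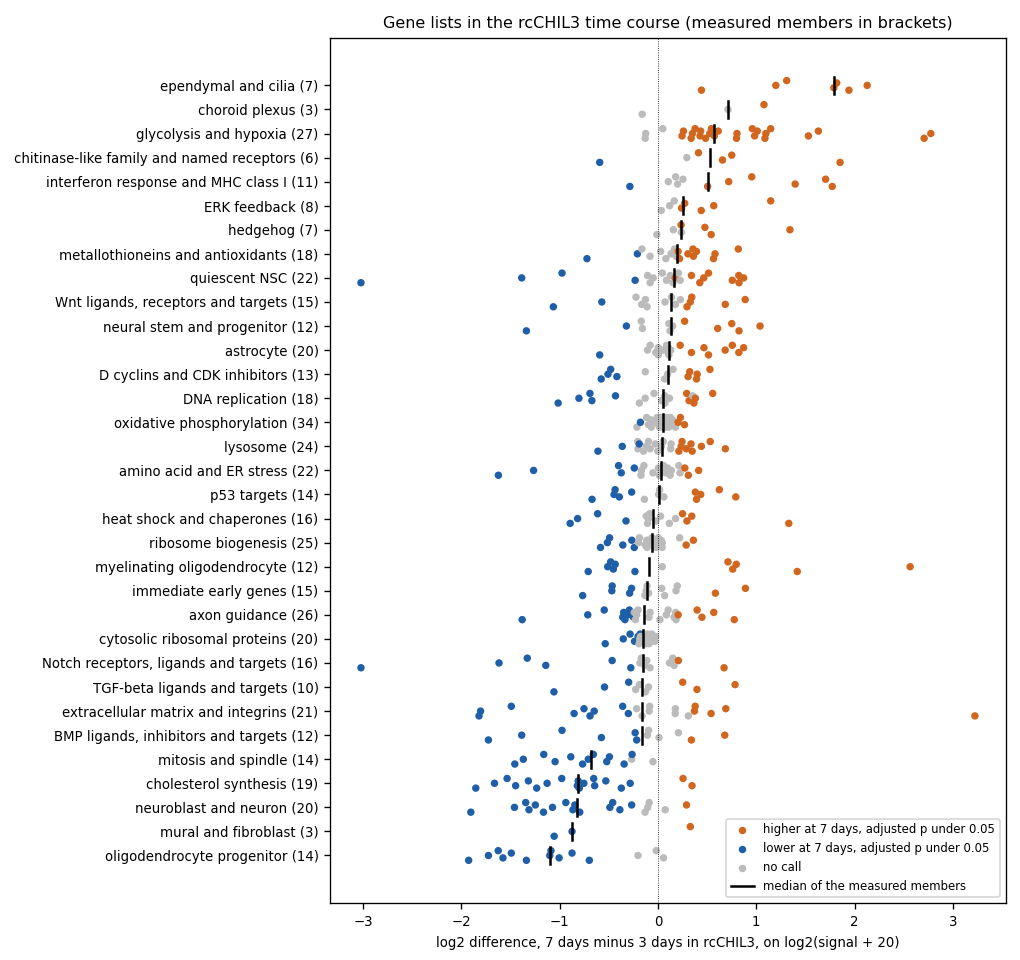
Change from 3 to 7 days in rcCHIL3 of the measured genes of 33 lists, as the log2 difference on the log2(signal + 20) scale, 1 point per gene at its brightest probe set. Orange points rose and blue points fell at a limma adjusted p under 0.05, black bars are list medians, and the lists are ordered by median from oligodendrocyte progenitor (-1.09) to ependymal and cilia (1.79). The place of the ependymal list rests on the limit, since its median was 0.82 for the 2 genes above it on all 4 arrays and 0.44 with no filter (23 genes), against 0.54 and 0.57 for glycolysis and hypoxia.

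Oligodendrocytes, the cells that wrap axons with myelin, form from progenitors that express Pdgfra and the transcription factors Olig1, Olig2, Sox10 and Nkx2-2, through a committed stage marked by Gpr17, Enpp6 and Bmp4. Of 14 measured genes of the oligodendrocyte progenitor list, 11 fell and 0 rose in rcCHIL3, against a background of 17.9% of genes that fell. The median change was -1.09, against 0.01 over all 8376 genes. Enpp6, a choline-specific phosphodiesterase, had signals of 555 and 665 at 3 days and 147 and 144 at 7 days and fell by 1.93 ± 0.15 (limma adjusted p = 3.77e-06). Gpr17, a receptor of premyelinating cells, was measured at 927 and 897 at 3 days and 286 and 299 at 7 days and fell by 1.58 ± 0.07 (limma adjusted p = 7.89e-08). Bmp4, a ligand of the BMP family, had 508 and 449 at 3 days and 132 and 129 at 7 days and fell by 1.72 ± 0.10 (limma adjusted p = 3.03e-07). In each of these the 2 days did not overlap. The transcription factors moved the same way: Nkx2-2 fell from 215 to 56.1, Olig2 from 439.9 to 163, Olig1 from 1040.1 to 478 and Sox10 from 417 to 198. Pdgfra, the PDGF receptor of the progenitors, fell from 223 and 214 to 116 and 105, a change of -0.87 ± 0.10 (limma adjusted p = 5.25e-05). Cspg4, C1ql1 and Ptprz1 had no call, with changes of -0.02, -0.20 and 0.06.

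The myelinating oligodendrocyte list split. Of 12 measured genes, 5 rose and 6 fell. The median was -0.10 here and 0.15 on the deposited scale, where the limit kept 13 genes. Among the 10 that reached 50 on all 4 arrays, 3 rose and 6 fell, with a median of -0.33. Mobp, a basic protein of compact myelin, had signals of 7.03 and 7.37 at 3 days and 134 and 149 at 7 days and rose by 2.56 ± 0.10 (limma adjusted p = 4.24e-08). Mag, the myelin-associated glycoprotein, was measured at 132 and 129 at 3 days and 375 and 389 at 7 days and rose by 1.42 ± 0.08 (limma adjusted p = 2.71e-07). Neither gene overlapped between the days. Cldn11, the claudin of myelin, rose from 612 to 1015, Tspan2 from 135 to 248 and Opalin from 43.1 to 86.9. Mobp and Opalin reached 50 on the arrays of 7 days only. Genes of myelin lipid synthesis were among those that fell: Ugt8a, which makes galactosylceramide, had signals of 1639.6 and 1677 at 3 days and 998 and 1015 at 7 days, a change of -0.71 ± 0.06 (limma adjusted p = 4.69e-06), and Gal3st1, which sulfates it, fell from 168 to 114. Fa2h, the fatty acid hydroxylase, fell from 237 to 168, but on the deposited scale its adjusted p was 0.0612. Sirt2, a deacetylase, fell from 1753 to 1223, Cnp from 2464 to 2092, and Myrf, the transcription factor of myelination, from 455 to 334. Mbp, the myelin basic protein, was at 2626 and 2664 at 3 days and 2653 and 2801 at 7 days, with a change of 0.04 and no call.

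The neuroblast and neuron list was lower at 7 days. Of 20 measured genes, 15 fell and 1 rose, and the median change was -0.82. Of these genes, 4 reached 50 on the arrays of 3 days only, and among the 13 that reached it on all 4 arrays 8 fell and 1 rose, with a median of -0.39. With no filter the median was -0.44 (29 genes). Dlx1, a homeobox factor of GABAergic interneuron precursors, had signals of 211 and 197 at 3 days and 36.9 and 42.9 at 7 days and fell by 1.90 ± 0.10 (limma adjusted p = 1.53e-07). Dcx, doublecortin of migrating neuroblasts, was measured at 236 and 204 at 3 days and 69.6 and 64.8 at 7 days and fell by 1.46 ± 0.09 (limma adjusted p = 5.24e-07). Elavl4, a neuronal RNA-binding protein, fell from 89.8 and 87.4 to 24.1 and 21.4, a change of -1.35 ± 0.10 (limma adjusted p = 1.89e-06). The arrays of 7 days were below those of 3 days in all 3 genes. Dlx2 fell from 173 to 62.3, Stmn3, a stathmin that binds tubulin, from 459.7 to 173, Crmp1 from 154 to 58.5 and Gad1, which makes GABA, from 352 to 187. Sox11 fell from 537 to 301, whereas Sox4 had no call at 2385 and 2571 at 3 days and 2263 and 2255 at 7 days. The gene that rose, Stmn4, was at 67.4 and 62.6 at 3 days and 83.8 and 84 at 7 days, and its call was lost when any 1 of the rcCHIL3 arrays was left out, with adjusted p of 0.0656 and 0.15 without an array of 3 days and 0.0912 and 0.0975 without one of 7 days.

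**Figure D3:**
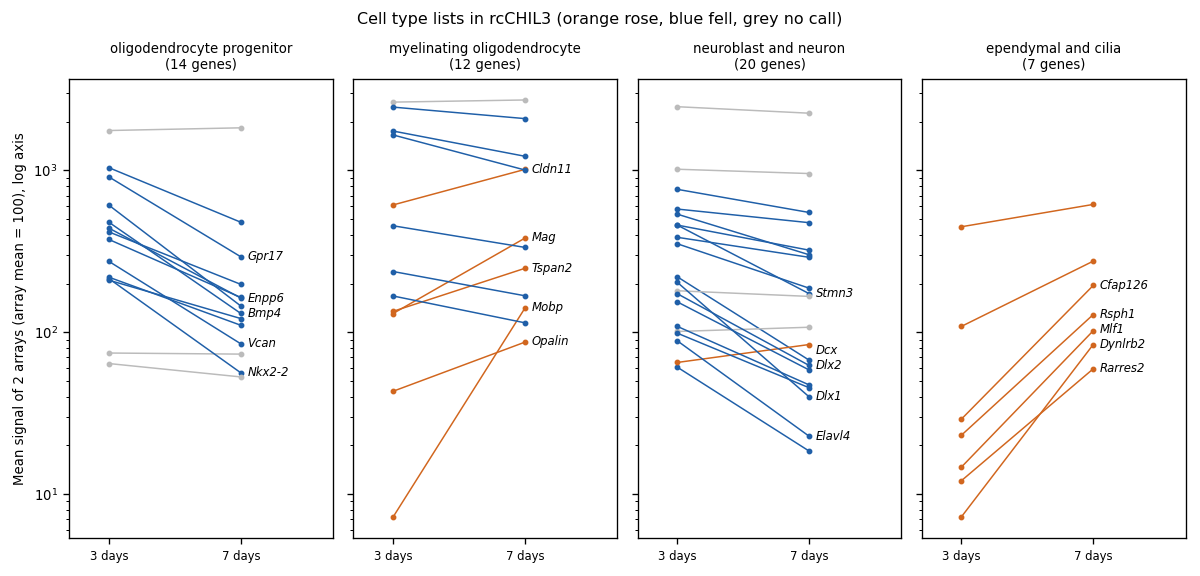
Mean signal of 2 arrays per day in rcCHIL3, on a log axis, for the measured genes of 4 cell type lists, each line 1 gene. Lines of oligodendrocyte progenitor and neuroblast genes mostly slope down, those of ependymal genes up, and the myelin genes split into 5 that rose (orange) and 6 that fell (blue).

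Ependymal cells line the ventricles and carry motile cilia, whose genes are switched on by Foxj1 and the Rfx factors. All 7 measured genes of the ependymal and cilia list rose in rcCHIL3, with changes of 0.44 to 2.13, and the other 16 genes on the array stayed under the limit. Of the 7 genes, 5 reached 50 on the arrays of 7 days only, so their number is no support by itself. The median was 1.79, against 0.82 for the 2 genes that reached 50 on all 4 arrays and 0.44 over all 23 with no filter. Those 2 genes were Foxj1 and Rfx3. Foxj1 had signals of 107 and 111 at 3 days and 269 and 281 at 7 days and rose by 1.20 ± 0.09 (limma adjusted p = 2.30e-06), and Rfx3 rose from 432 and 465 to 637 and 596. The days did not overlap in either. Cfap126, a protein of the ciliary basal body, had signals of 30.1 and 27.8 at 3 days and 179 and 209.8 at 7 days and rose by 2.13 ± 0.15 (limma adjusted p = 1.54e-06). Dynlrb2, a dynein light chain, rose from 4.24 and 10.2 to 84.9 and 83, Mlf1 from 14.8 and 14.5 to 100.4 and 104 and Rsph1, a radial spoke protein, from 25.2 and 20.9 to 128 and 129. Of the choroid plexus list, 3 genes were measured and 1, the folate receptor Folr1, rose from 24.4 to 73.7, while Ttr, transthyretin, was at 146 and 477 at 3 days and 561 and 361 at 7 days with no call and a wide spread at 3 days. Folr1 reached 50 on the arrays of 7 days only, which fixes its direction. Without array 1 of 3 days the median of these 3 genes was -0.08 in place of 0.71, and with no filter it was 0.07 (11 genes).

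Of 20 astrocyte genes, 8 rose and 1 fell, with a median of 0.11. Gfap, the intermediate filament of astrocytes, had signals of 842 and 978 at 3 days and 1538 and 1555 at 7 days and rose by 0.76 ± 0.09 (limma adjusted p = 7.34e-05), and the days did not overlap. Ntsr2, a neurotensin receptor, rose from 319.9 to 602, Slc1a2, the glutamate transporter GLT-1, from 282 to 517, and Acsbg1, an acyl-CoA synthetase, from 176 to 295. Cd44, the hyaluronan receptor, fell from 681 to 445. Of the 22 genes of the quiescent NSC list, 9 rose and 4 fell, with a median of 0.16 and Hes5 as the largest fall. Id3, an inhibitor of helix-loop-helix factors, fell from 1524 and 1530.3 to 585 and 559, a change of -1.39 ± 0.07 (limma adjusted p = 1.24e-07). Of 12 genes of the neural stem and progenitor list, 5 rose, among them Sox1 (from 117 to 261), Prom1, prominin (from 369 to 669.9), and Vim, vimentin (from 1632 to 2494), and 2 fell, among them Olig2. Egfr, the receptor of EGF, had signals of 215 and 218 at 3 days and 380.1 and 375 at 7 days and rose by 0.75 ± 0.07 (limma adjusted p = 1.19e-05). In the mural and fibroblast list 3 of 14 genes were measured: Acta2, smooth muscle actin, fell from 114 to 44.4, Pdgfra fell as given above, and Thy1 was at 254 and 258 at 3 days and 319 and 335 at 7 days, with a call (limma adjusted p = 0.0497) that was lost when any 1 array of rcCHIL3 was left out, at adjusted p of 0.103 to 0.183. Pdgfrb, the receptor of mural cells, stayed under the limit at 41.5 and 35.4 at 3 days and 17.4 and 17.6 at 7 days.

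Cells short of oxygen stabilize the HIF transcription factors, which bind the core sequence ACGTG and turn on genes of glycolysis, glucose uptake and vessel growth. Of 27 measured genes of the glycolysis and hypoxia list, 24 rose and 0 fell in rcCHIL3, against 20.7% and 17.9% of all genes. Their median change was 0.57, and 21 to 23 rose when any 1 rcCHIL3 array was left out. Gbe1, the glycogen branching enzyme, had signals of 56.2 and 38.3 at 3 days and 461 and 413 at 7 days and rose by 2.78 ± 0.17 (limma adjusted p = 6.42e-07). Ndrg1, a gene induced by hypoxia, was measured at 80.6 and 76.4 at 3 days and 655 and 593 at 7 days and rose by 2.71 ± 0.07 (limma adjusted p = 3.78e-09). Adm, the vasodilator peptide adrenomedullin, had 96.5 and 98.4 at 3 days and 305 and 334 at 7 days and rose by 1.53 ± 0.08 (limma adjusted p = 1.68e-07). The 4 arrays of each gene fell into 2 groups by day with a wide gap. Ero1a, an oxidase of the endoplasmic reticulum, rose from 82.6 and 82.2 to 349 and 395, and its 3 kept probe sets all rose. Pfkp, a phosphofructokinase, rose from 226 and 233 to 796 and 712, and Vegfa, the vascular growth factor, from 394 and 384 to 856 and 853. The glycolytic enzymes rose by less: Pfkl from 117 to 250.1, Aldoa from 1639.7 to 2449, Tpi1 from 1479.7 to 2168, Pgk1 from 1540.3 to 2162, Ldha from 1196 to 1559.7 and Pgam1 from 1191 to 1511. The glucose transporters Slc2a1 and Slc2a3 rose from 752 to 965 and from 457 to 709. Kdm3a, Hk1 and Pfkfb3 had no call, with changes of 0.05, -0.13 and -0.13.

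The promoters of this list were read because its genes rose together. Of the 33 genes of the list 30 had a promoter in the RefSeq table (build GRCm38.p6), with 44 windows of 250 bases before a transcription start. ACGTG, on either strand, was found in 22 of these windows, against 16.6% of all 32851 windows of that length. The reverse strand reads CACGT, so that CACGTG counts on both. TTTGAA and CCAAT, read the same way, were found in 9.09% and 31.8% of the list's windows, against 16.0% and 33.8% of all. These shares are over the windows of all 30 genes, including genes without a called rise, and some genes have several windows. The list was written by hand from genes of these processes, so the shares describe the list and not the arrays. Among the 10 genes with the largest rises, no ACGTG was found in the window of Gbe1, Adm, Pfkp or Pfkl. It was also absent from the first listed window of Vegfa, and Ndrg1 was not in the table. The windows of the 3 genes with the largest rises among those whose first listed window holds the letters are given 5′ to 3′ on the strand of the gene, with ACGTG or its reverse in capitals. They lie at chr14:45318573-45318822 (Ero1a, minus strand), chr12:54203875-54204124 (Egln3, the prolyl hydroxylase that marks HIF for degradation, minus strand) and chr8:45999851-46000100 (Ankrd37, an ankyrin repeat protein, minus strand).
Ero1a: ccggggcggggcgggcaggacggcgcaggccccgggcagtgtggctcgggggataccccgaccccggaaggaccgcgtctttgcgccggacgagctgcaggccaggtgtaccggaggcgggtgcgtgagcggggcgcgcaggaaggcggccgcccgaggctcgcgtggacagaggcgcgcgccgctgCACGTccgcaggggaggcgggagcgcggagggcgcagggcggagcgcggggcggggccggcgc
Egln3: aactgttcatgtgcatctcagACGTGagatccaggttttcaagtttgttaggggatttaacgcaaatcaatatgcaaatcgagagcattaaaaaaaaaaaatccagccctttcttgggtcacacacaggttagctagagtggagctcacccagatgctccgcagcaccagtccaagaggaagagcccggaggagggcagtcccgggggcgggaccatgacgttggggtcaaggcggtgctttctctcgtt
Ankrd37: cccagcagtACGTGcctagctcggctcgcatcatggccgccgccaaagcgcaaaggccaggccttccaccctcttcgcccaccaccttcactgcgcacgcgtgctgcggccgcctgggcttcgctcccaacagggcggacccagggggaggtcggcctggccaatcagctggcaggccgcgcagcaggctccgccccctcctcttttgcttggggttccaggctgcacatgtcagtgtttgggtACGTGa

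Egln3 rose from 78.9 and 73.4 to 184 and 184 and Ankrd37 from 46.9 and 64.9 to 130.0 and 134, and in both genes each array of 7 days was above each of 3 days.

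Cholesterol is made from acetyl-CoA through mevalonate and squalene, and the enzymes of the pathway are regulated together by SREBP2. Of 19 measured genes of the cholesterol synthesis list, 17 fell and 2 rose, with a median of -0.81. Lss, which closes squalene epoxide to lanosterol, had signals of 407 and 411 at 3 days and 103 and 94.5 at 7 days and fell by 1.85 ± 0.08 (limma adjusted p = 4.38e-08). Fdps, which makes farnesyl pyrophosphate, was measured at 615 and 607 at 3 days and 174 and 185 at 7 days and fell by 1.66 ± 0.07 (limma adjusted p = 6.69e-08). Insig1, which holds SREBP in the endoplasmic reticulum, fell from 1037 and 1088 to 362 and 345, a change of -1.53 ± 0.07 (limma adjusted p = 7.36e-08). None of these 3 genes overlapped between the days. The fall reached from the early steps (Hmgcs1 from 2339 to 1802, Mvd from 220.5 to 68.2, Idi1 from 659 to 252) to the late ones (Cyp51 from 390.2 to 154, Dhcr7 from 378 to 163). Srebf2, the gene of SREBP2 itself, fell from 193 to 155. The 2 genes that rose were Ebp (from 51.2 to 70.5) and Hsd17b7 (from 190.2 to 231). Without array 1 of 3 days their adjusted p were 0.0585 and 0.0646, and no gene of the list rose.

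**Figure D4:**
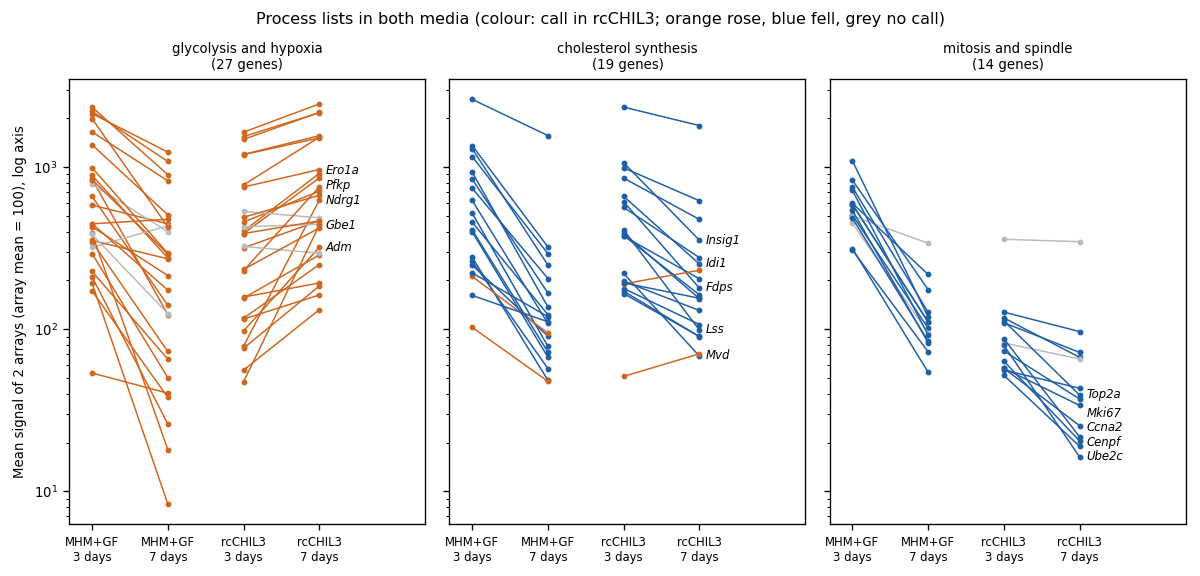
Mean signal of 2 arrays in each of the 4 groups, on a log axis, for the measured genes of 3 process lists, with 1 line per gene within a medium. In rcCHIL3 24 of the 27 glycolysis and hypoxia genes rose, whereas in MHM + GF 24 fell, and most cholesterol and mitosis genes slope down in both media.

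Genes of mitosis were already low at 3 days and fell further. In the mitosis and spindle list 25 of 39 genes on the array stayed under the limit. Of the 14 measured, 12 fell and 0 rose, with a median of -0.68, but 9 of the 14 reached 50 on the arrays of 3 days only. Among the 5 that reached it on all 4 arrays, 3 fell, and their median was -0.34. Mki67, the proliferation antigen Ki-67, had signals of 92.4 and 82.2 at 3 days and 25.7 and 17.6 at 7 days and fell by 1.37 ± 0.10 (limma adjusted p = 2.28e-06). Top2a, topoisomerase II alpha, was measured at 115 and 109.9 at 3 days and 41.6 and 36.9 at 7 days and fell by 1.16 ± 0.08 (limma adjusted p = 1.35e-06). Ube2c, the ubiquitin carrier of the anaphase-promoting complex, fell from 76.9 and 82.3 to 15.4 and 17.2, and Ccna2, cyclin A2, from 64.5 and 62.6 to 19.4 and 21.5. No array of 7 days reached the level of 3 days in these genes. Of 18 measured genes of DNA replication, 5 rose and 5 fell, and 3 rose without array 1 of 3 days or array 2 of 7 days. Among the 16 genes that reached 50 on all 4 arrays, 5 rose and 3 fell. The other 2 reached it on the arrays of 3 days only, which fixes their direction. Rrm2, a subunit of ribonucleotide reductase, fell from 208 to 92.9 and Mcm5, of the replicative helicase and one of those 2, from 78.3 to 36.2. Gins4, which joins that helicase, rose from 129 to 199.5 and Rpa1, which binds single-stranded DNA, from 546 to 684.

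Promoters of mitotic genes often carry the CHR element, TTTGAA, and CCAAT boxes bound by NF-Y. Of the 40 genes of the list 32 had a promoter in the table, with 35 windows. TTTGAA was found on either strand in 37.1% of them, against 16.0% of all windows, and CCAAT in 77.1%, against 33.8%. ACGTG was found in 25.7%, against 16.6% of all. The 32 genes include members under the limit, and this list too was written by hand, so the shares describe it and not the arrays. The reverse of TTTGAA is TTCAAA and that of CCAAT is ATTGG, and CCAATTGG holds a match on each strand. The windows of the 3 genes with the largest falls among those in the table are given 5′ to 3′ on the strand of the gene, with both elements in capitals. They lie at chr2:164769679-164769928 (Ube2c, plus strand), chr7:135716380-135716629 (Mki67, minus strand) and chr11:99024190-99024439 (Top2a, minus strand), with 7, 5 and 8 matches.
Ube2c: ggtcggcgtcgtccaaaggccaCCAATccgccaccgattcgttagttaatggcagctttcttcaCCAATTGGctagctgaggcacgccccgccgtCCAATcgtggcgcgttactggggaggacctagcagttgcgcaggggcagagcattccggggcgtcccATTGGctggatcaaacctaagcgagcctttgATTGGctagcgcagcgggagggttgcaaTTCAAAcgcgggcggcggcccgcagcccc
Mki67: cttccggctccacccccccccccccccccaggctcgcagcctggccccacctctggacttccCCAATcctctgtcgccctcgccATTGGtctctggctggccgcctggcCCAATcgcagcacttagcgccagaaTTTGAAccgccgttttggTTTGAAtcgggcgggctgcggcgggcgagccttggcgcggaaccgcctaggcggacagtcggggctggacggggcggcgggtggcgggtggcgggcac
Top2a: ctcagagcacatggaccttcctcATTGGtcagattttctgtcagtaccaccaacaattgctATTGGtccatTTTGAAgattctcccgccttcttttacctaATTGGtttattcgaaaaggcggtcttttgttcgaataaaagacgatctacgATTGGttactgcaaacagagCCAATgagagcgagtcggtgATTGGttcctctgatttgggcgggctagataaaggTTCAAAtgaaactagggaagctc

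EGF and FGF receptors signal through ERK, which turns on genes that feed back on it. Of 8 measured genes of the ERK feedback list, 5 rose and 0 fell, with a median of 0.26 (0.12 with no filter, over 13 genes). Etv5, an ETS factor downstream of FGF receptors, had signals of 35.8 and 29.1 at 3 days and 95.7 and 96.2 at 7 days and rose by 1.15 ± 0.11 (limma adjusted p = 2.06e-05). It reached the limit on the arrays of 7 days only, which fixes its direction. Among the 6 genes that reached the limit on all 4 arrays, 4 rose and 0 fell, with a median of 0.26. The count of 5 rises includes Etv5. Phlda1 rose from 264 and 295 to 419 and 427 and Spry2, an inhibitor of receptor tyrosine kinases, from 298 and 333 to 440.5 and 429, and the days did not overlap in either. Dusp6, a phosphatase of ERK, was at 78.7 and 75 at 3 days and 85.6 and 91.7 at 7 days with no call. The count fell to 3 without array 1 or 2 of 3 days or array 2 of 7 days. The immediate early genes, which answer to the same pathway within minutes, were mixed, with 2 that rose and 5 that fell of 15 (2 fell without array 1 of 3 days or array 2 of 7 days, and 3 without either other array). Nr4a1, an orphan nuclear receptor, fell from 969 and 989 to 634 and 507 and Egr2 from 304 and 284 to 212 and 202, and Klf4 rose from 143 and 168 to 325 and 285 and Fosl2 from 73 and 66.6 to 112 and 117. Of 13 genes of D cyclins and CDK inhibitors, 5 rose (2 without array 1 of 3 days) and 4 fell. Cdk4, the kinase partner of D cyclins, fell from 529 to 349 and Ccnd1, cyclin D1, from 131 to 86. Cdkn2b, which inhibits that kinase, rose from 130.3 to 197 and Rb1, its substrate, from 554 to 697.

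Notch signalling keeps progenitors from differentiating through the Hes and Hey repressors. Of 16 measured genes of the Notch list, 6 fell and 2 rose (1 with any rcCHIL3 array left out), against a background of 17.9% and 20.7%. Besides Hes5, Hey1 had signals of 527 and 510.2 at 3 days and 158 and 153 at 7 days and fell by 1.62 ± 0.08 (limma adjusted p = 1.50e-07). Dll3, a ligand of the family that acts inside the cell, fell from 164 and 168 to 56.1 and 52.3, and Mfng, which adds sugars to Notch, from 59.4 and 60.8 to 16 and 16.6. In none of these did the days overlap. Among the receptors, Notch3 fell from 191 to 133, Notch2 rose from 131 to 220.3 and Notch1 was at 354 and 365 at 3 days and 337 and 299 at 7 days with no call. Rbpj, the DNA-binding partner of Notch, had a change of 0.12 and no call.

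In the BMP list 6 of 12 measured genes fell and 2 rose. Bmp4 was the ligand that passed the limit, and it fell as described. The targets Id1 and Id3 fell from 1425 to 714 and from 1527 to 572, while Id4 was at 1331 and 1454 at 3 days and 1668 and 1553 at 7 days with no call. Of the receptors, Bmpr1a fell from 1278 to 850.5 and Bmpr1b rose from 233 to 300.0, and the extracellular regulator Bmper rose from 124 to 211. Without array 2 of 3 days, or array 1 of 7 days, Bmper was the 1 gene of the list that rose. In the TGF-beta list 3 of 10 genes rose and 3 fell: Inhbb, a subunit of activin, rose from 128 to 235, and the ligand Tgfb2 and the target Ccn1 fell from 449 to 302 and from 1828 to 861. In the Wnt list 5 of 15 genes rose (3 without either array of 3 days) and 2 fell. The ligand Wnt5a rose from 112 to 224 and Wnt7b from 53.8 to 98.5, and Wnt4 fell from 57.3 to 17 and the decoy Sfrp2 from 89.3 to 53.7. In the hedgehog list 4 of 7 genes rose and 0 fell, and 2 rose without array 2 of 3 days or array 1 of 7 days. Gas1, a co-receptor of hedgehog, had signals of 410.3 and 448 at 3 days and 1079.6 and 1158 at 7 days and rose by 1.34 ± 0.11 (limma adjusted p = 3.34e-06), and Gli2, a transcription factor of the pathway, rose from 125 to 191. The transcript of Gli1, a target that reads out the pathway, stayed under the limit.

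Of 21 genes of extracellular matrix and integrins, 9 fell and 5 rose. Their median was -0.16 here, 0.01 on the deposited scale (29 genes) and -0.26 for the 18 genes above the limit on all 4 arrays. Fn1 rose, while the matrix proteins of the brain Tnc, Ncan, Vcan (from 274 to 84.7) and Bcan (from 2507 to 1592) fell. Timp3, an inhibitor of metalloproteinases, fell from 667 to 360.0, and the integrin subunit Itgb5 rose from 165 to 279. Of 26 genes of axon guidance, 9 fell and 5 rose, but with 1 rcCHIL3 array left out 3 to 5 fell and 3 to 4 rose. Dcc, the receptor of netrin, had signals of 236 and 228 at 3 days and 76.6 and 76.9 at 7 days and fell by 1.38 ± 0.08 (limma adjusted p = 3.26e-07). Epha5, an ephrin receptor, fell from 290.0 to 169, and Ntn4, netrin 4, rose from 73.3 to 139.9.

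Of the 11 measured genes of the list of interferon response and MHC class I, 6 rose and 1 fell (0 without either array of 3 days or array 2 of 7 days), with a median of 0.51, and 3 reached 50 on the arrays of 7 days only. Among the 8 that reached it on all 4 arrays 3 rose and 1 fell, with a median of 0.23, and with no filter 6 of 25 rose, with a median of 0.19. Ifitm3, a membrane protein that restricts viruses, had signals of 233 and 239 at 3 days and 692 and 618 at 7 days and rose by 1.40 ± 0.09 (limma adjusted p = 5.96e-07), and Ifitm2 rose from 135 and 136 to 479 and 494. The guanylate-binding protein Gbp2 rose from 36.1 and 27.2 to 161 and 150.4 and Rsad2, viperin, from 30.5 and 37.2 to 87 and 81.1. Arrays of the 2 days did not overlap in these genes. Core genes of the response such as Ifit1, Irf7, Mx1 and Oasl2 stayed under the limit on both days. MHC class I (H2-K1 from 351 to 399.9, H2-D1 from 299.9 to 325) and B2m had no call.

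Other lists moved in part or close to the background. Of 18 genes of metallothioneins and antioxidants, 9 rose and 2 fell (1 without either array of 3 days or array 1 of 7 days): Nqo1, a quinone reductase, rose from 74.7 to 147 and Mt2, a metallothionein, from 1615 to 2399, but Hmox1, heme oxygenase, fell from 248 to 142. Of 24 lysosome genes, 9 rose (5 without array 1 of 7 days), among them the cathepsins Ctsz (from 315 to 520.1) and Ctsb (from 915 to 1332), and 3 fell, with Npc1, the cholesterol carrier of the lysosome, from 233 to 146. The heat shock and chaperone list had 4 genes up (2 without array 1 of 3 days) and 4 down of 16. The small heat shock protein Hspb6 rose from 133 to 364 and Hspb8 fell from 614 to 339.7, as did the inducible Hspa1b (from 206 to 102). Of 22 genes of amino acid and ER stress, 3 rose and 5 fell (3 without array 1 of 3 days), and Atf5, a transcription factor of that response, fell from 428 and 469 to 191 and 159.8. Among 14 p53 targets, 5 rose and 5 fell (3 without array 1 of 7 days), with Phlda3 up from 259.5 to 464 and Pmaip1, a killer protein of the BCL2 family, down from 111 to 62.2. Of 34 genes of oxidative phosphorylation, 3 rose and 1 fell, and with 1 rcCHIL3 array left out 0 to 2 rose and 0 fell. Of 20 cytosolic ribosomal proteins, 6 fell and 0 rose, and on the deposited scale 1 fell and with 1 rcCHIL3 array left out 3 to 9. Of 25 genes of ribosome biogenesis, 6 fell, among them fibrillarin, Fbl (from 339.8 to 219.9), and 2 rose, and with 1 rcCHIL3 array left out 3 to 5 fell and 0 to 1 rose.

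The transcript of Chil3 itself was near 0 in neurospheres of both days, with signals of 1.31 and 0.673 at 3 days and 0.353 and 0.441 at 7 days. The other members of the chitinase-like family that were on the array, Chil4, Chit1 and Chia1, also stayed under the limit, and Chil1 was at 47.8 and 38.1 at 3 days and 57.7 and 56.2 at 7 days with no call. Of the receptors and partners listed with the family, Lgals3, the galectin that binds sugars at the cell surface, had signals of 114 and 110.2 at 3 days and 439 and 475 at 7 days and rose by 1.85 ± 0.12 (limma adjusted p = 1.07e-06). Egfr and Gsn, the actin-severing protein gelsolin (from 505 to 807), rose as well, and Cd44 fell. All arrays of the days were apart for these genes. Il13ra2, a receptor of IL-13, and Serpinf1 were under the limit. In all 4 of the 6 measured genes rose, among them Tmem219 (from 64.6 to 92.4), whose call was lost without array 1 of 3 days or either array of 7 days (adjusted p of 0.209, 0.0517 and 0.159).

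**Figure D5:**
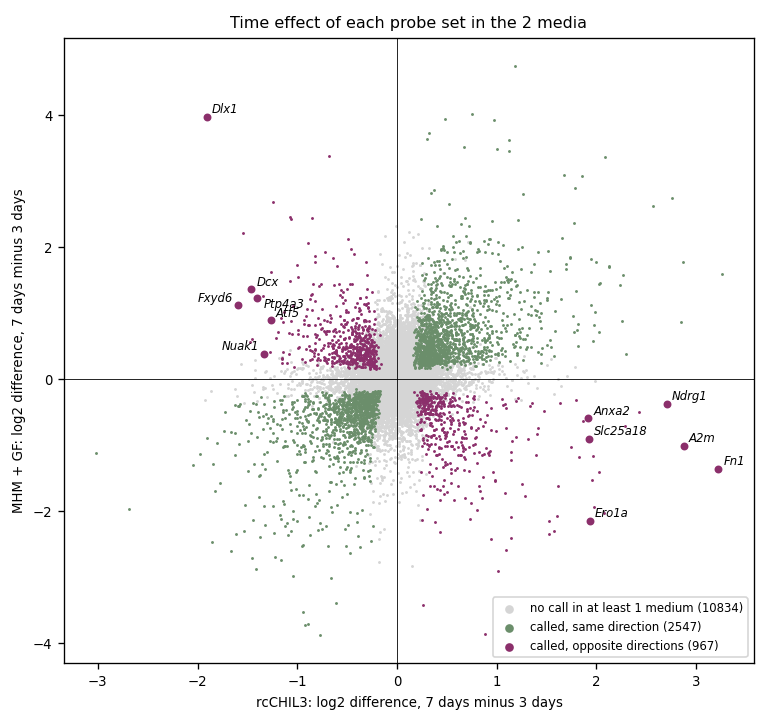
Change from 3 to 7 days of each of the 14348 probe sets in rcCHIL3 (x axis) and in MHM + GF (y axis), as log2 differences on the log2(signal + 20) scale. Of the probe sets called in both media, 2547 moved the same way (green) and 967 the opposite way (purple), and the 12 genes named are the 6 largest rises and 6 largest falls in rcCHIL3 among the latter that had a mean signal of at least 200 on the brighter day.

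The same days in MHM + GF show which of these changes were shared by the media. No array is common to the 2 comparisons. In MHM + GF 31.6% of the same probe sets rose and 24.2% fell, and the median size of a change was 0.28, against 0.18 in rcCHIL3. Across probe sets the changes of the media had a Pearson r of 0.30 and a Spearman rho of 0.28, a description over 14348 probe sets that are not independent. Of the 2671 probe sets that rose in rcCHIL3, 1416 rose in MHM + GF, 828 had no call (31.0%) and 427 fell (16.0%). Of the 2602 that fell, 1131 fell (43.5%), 931 had no call (35.8%) and 540 rose (20.8%). The difference of the time effect between the media was itself past the test for 5795 probe sets (40.4%), of which 2466 had the higher change in rcCHIL3 and 3329 the lower. On the deposited scale, with 21755 probe sets kept, these were 3729 and 1903.

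The glycolysis and hypoxia genes ran in opposite directions. Among the 8376 genes, 56.8% changed in MHM + GF and the difference between the media was called for 42%. In MHM + GF 24 of the 27 glycolysis and hypoxia genes fell and 1 rose, with a median of -1.47, and for 25 the change was higher in rcCHIL3 by the test of the difference. Adm fell from 293 to 50.3 in MHM + GF, and the change in rcCHIL3 was higher by 3.68 ± 0.11 (limma adjusted p = 3.86e-09). For Ero1a, which fell from 229 to 36.3, the difference was 4.08 ± 0.12 (limma adjusted p = 3.86e-09). The young neuronal genes ran the other way. In MHM + GF 15 of the 20 genes rose and 3 fell, with a median of 0.73, and for 18 the change was lower in rcCHIL3. Dlx1 rose in MHM + GF, with signals of 18.1 and 13.5 at 3 days and 541 and 546 at 7 days, and the difference of the time effects was -5.88 ± 0.13 (limma adjusted p = 7.02e-10). Dcx had 74.7 and 74.1 at 3 days and 223 and 223 at 7 days there, with a difference of -2.82 ± 0.12 (limma adjusted p = 3.32e-08). In both genes the levels of rcCHIL3 at 3 days and of MHM + GF at 7 days were the high ones.

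Other genes with opposite courses were Fn1, which fell from 193 to 63.3 in MHM + GF, A2m (from 816 to 397), Slc25a18 (from 445 to 230.0) and Anxa2, a calcium-dependent membrane-binding protein, which rose from 63 to 294 in rcCHIL3 and fell from 347 to 224 in MHM + GF. Ptp4a3, a phosphatase, fell from 449.7 to 158 in rcCHIL3 and rose from 129 to 328 in MHM + GF, Nuak1, a kinase, fell from 251 to 87.8 and rose from 22.7 to 36, and Fxyd6 and Atf5 rose from 156 to 364 and from 69.6 to 146 in MHM + GF. Etv5, of the ERK feedback list, fell from 361 to 144 in MHM + GF, and for 7 of the 8 genes of that list the change was higher in rcCHIL3.

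Cholesterol synthesis fell in both media and by less in rcCHIL3. All 19 genes fell in MHM + GF, with a median of -1.92, and for 18 of them the change was higher in rcCHIL3. The 14 mitosis genes also fell in MHM + GF, with a median of -2.19, from levels that were far above those of rcCHIL3 at 3 days: Mki67 fell from 751 to 127 and Top2a from 830.2 to 175. The oligodendrocyte progenitor list fell by less in MHM + GF (10 of 14 genes, median -0.57), and for 8 of the 14 genes the change was lower in rcCHIL3. For Enpp6 the difference was -1.62 ± 0.22 (limma adjusted p = 1.62e-04) and for Gpr17 -1.20 ± 0.10 (limma adjusted p = 5.37e-06). Among the ependymal genes 6 of 7 rose in MHM + GF too, and for 4 the rise was higher in rcCHIL3, among them Rsph1 (1.60 ± 0.18, limma adjusted p = 3.58e-05). Gfap rose in both media but by less in rcCHIL3, with a difference of -3.26 ± 0.13 (limma adjusted p = 1.72e-08) and MHM + GF signals of 57.6 and 46.3 at 3 days and 1101 and 1189 at 7 days.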

How the data were processed

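Mouse NSC neurospheres in rcCHIL3 or MHM + GF were measured on 8 Affymetrix arrays. The deposited values are linear signal intensities that the authors made with MAS5 and a global scaling (Affymetrix Expression Console 1.1 per the labels). Their array means were 267.3 to 316.6, so each array was rescaled to a mean of 100. No other normalization was used. Probe sets with a signal of 50 on at least 2 of the 4 rcCHIL3 arrays were kept and compared as log2(signal + 20), which understates the changes of dim genes.

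A model of 4 group means was fitted to all 8 arrays by limma 3.58.1, run in R 4.3.3, with moderated variances that follow the mean signal and 4 residual degrees of freedom. The p-values are two-sided and Benjamini-Hochberg adjusted over all 14348 kept probe sets (threshold 0.05). An SE comes from this model. Genes were named from GEO's platform annotation where a probe set had 1 symbol (34958; several for 932, none for 9211), and a gene of a list is shown at its brightest probe set. Of 2987 genes with several kept probe sets, 36 were called in both directions.

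The genes named are the 15 largest rises and falls (mean signal of at least 200 on the brighter day, all 4 pairs of arrays in 1 direction), up to 4 list members in the main direction and 2 in the other, 6 rises and 6 falls opposite in MHM + GF, cell type markers and the chitinase-like family. Other list members named in the text were chosen after their values were seen. The members, the 35 lists and these rules were chosen with earlier results of these data known. Tested on simulated data for the rcCHIL3 comparison, the fit recovered 49 of 67 probe sets changed 1.5-fold, 63 of 67 changed 2-fold and all 66 changed 4-fold. It made 9 false calls. No other probe sets were changed in that simulation, whereas 36.8% were called in these data. Its recovery and false calls therefore do not give those of the real fit. Python 3.11.15 was used for tables (pandas 2.3.3) and plots (matplotlib 3.10.9). The alternatives tried were the deposited scale, quantile normalization, median centring, other offsets and filters, eBayes without a trend or with a robust one, the replicate number as a block, rcCHIL3 arrays alone, the methods' t-test, a 2-fold rule, and each array left out in turn.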

Additional observations from a re-analysis of the deposited data

Results flagged for a closer look

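For 138 of the 178 called genes chosen by the naming rule, the change from 3 to 7 days differed between rcCHIL3 and MHM + GF. The test was that of the difference itself (the interaction term of the limma fit, adjusted p under 0.05 over all probe sets). Each value is the change in rcCHIL3 minus that in MHM + GF on the log2(signal + 20) scale, and 40.4% of all probe sets passed the same test. The 6 rises and 6 falls chosen for an opposite course in MHM + GF had to pass it to be chosen. The other genes were chosen for the size of their change in rcCHIL3, so that share is no background for them. What moved these genes apart was not tested, and the 2-array groups allow no check for single arrays that stand apart.

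Among the largest rises in rcCHIL3, the change was higher in rcCHIL3 for Mal (1.67), Fn1 (4.57), A2m (3.88), Pdlim2 (1.09), Dct (1.99), Txnip (0.68), Septin4 (0.81), Cnmd (0.42), Pvalb (1.38), Slc25a18 (2.82) and Anxa2 (2.51) and lower for S1pr3 (-1.28). For the largest falls and the falls that were rises in MHM + GF, the change was lower in rcCHIL3 for Hes5 (-1.91), Fgfbp3 (-0.72), Ncan (-0.85), Vxn (-0.94), Ptpre (-1.48), Slc7a5 (-0.81), Fxyd6 (-2.72), Ptp4a3 (-2.63), Nuak1 (-1.72) and Atf5 (-2.16). Among the genes of the oligodendrocyte lineage, the change was lower in rcCHIL3 for Enpp6 (-1.62), Bmp4 (-1.23), Nkx2-2 (-0.47), Gpr17 (-1.20), Olig2 (-0.78), Ugt8a (-0.51), Sirt2 (-0.76), Gal3st1 (-0.62), Fa2h (-0.39) and Mag (-0.51). For neuroblasts and neurons, the change was lower in rcCHIL3 for Dlx1 (-5.88), Dcx (-2.82), Elavl4 (-2.62), Stmn3 (-0.79) and Stmn4 (-0.41).

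Among the genes of ependymal, choroid plexus and mural cells, the change was higher in rcCHIL3 for Dynlrb2 (0.81), Mlf1 (1.32) and Rsph1 (1.60) and lower for Folr1 (-0.60) and Acta2 (-0.68). In astrocytes and stem cells, the change was higher in rcCHIL3 for Egfr (0.78), Vim (0.77), Slc1a2 (1.07) and Acsbg1 (1.52) and lower for Sox1 (-0.76), Prom1 (-0.36), Ntsr2 (-1.23), Gfap (-3.26) and Cd44 (-0.73). Among the genes of glycolysis and hypoxia, the change was higher in rcCHIL3 for Gbe1 (3.04), Ndrg1 (3.08), Ero1a (4.08), Pfkp (1.99) and Adm (3.68). For cholesterol synthesis, the change was higher in rcCHIL3 for Lss (0.61), Fdps (0.94), Insig1 (0.76), Mvd (0.68), Ebp (1.20) and Hsd17b7 (1.27).

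In the group of DNA replication, mitosis and the cell cycle, the change was higher in rcCHIL3 for Rfc2 (0.87), Rpa2 (0.43), Rrm2 (0.39), Ube2c (1.26), Mki67 (1.02), Top2a (0.96), Ccna2 (1.07), Cdkn2b (0.66), Cdkn1a (0.80) and Ccnd1 (2.02) and lower for Mycn (-1.39). For ERK feedback and immediate early genes, the change was higher in rcCHIL3 for Etv5 (2.36), Phlda1 (1.18), Spry2 (0.38), Spred2 (0.68), Egr3 (1.54), Egr2 (0.91), Jun (1.10), Klf4 (1.93) and Fosl2 (0.65). In the group of Notch, BMP and TGF-beta, the change was higher in rcCHIL3 for Hey1 (0.73), Dll3 (0.59), Hes6 (0.38), Bmper (0.82), Inhbb (0.58), Tgfbi (1.14) and Smad3 (0.32) and lower for Mfng (-0.65), Notch2 (-0.66), Bmpr1a (-0.52), Ccn1 (-1.16) and Tgfb2 (-1.88). For Wnt, hedgehog, axon guidance and matrix, the change was higher in rcCHIL3 for Wnt7b (0.73), Fzd2 (0.44), Sfrp2 (0.39), Ptch1 (0.62), Dcc (0.40), Ntn4 (1.19) and Unc5b (0.83) and lower for Fzd8 (-0.58), Wnt4 (-0.82), Gli2 (-0.87), Cdon (-0.58), Sema6a (-0.48), Efnb3 (-0.95) and Timp3 (-0.82).

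In the group of respiration and ribosomes, the change was higher in rcCHIL3 for Ndufv1 (0.34), Ndufb8 (0.34), Cyc1 (0.33), Rpl14 (0.46), Rps6 (0.31) and Utp20 (0.48). For interferon, amino acid stress and p53, the change was higher in rcCHIL3 for Ifitm2 (1.65), Ifitm3 (2.54), Shmt2 (0.71), Phlda3 (0.92) and Pmaip1 (0.54) and lower for Gbp2 (-0.60), Irf1 (-0.41), Phgdh (-0.79), Dnajb9 (-0.52) and Zmat3 (-0.35). In the group of chaperones, lysosome and antioxidants, the change was higher in rcCHIL3 for Hspb6 (1.73), Hspa4l (0.34), Hspa1b (2.82), Ctsz (0.82) and Nqo1 (0.77) and lower for Bag3 (-0.79), Cryab (-1.34), Hspb8 (-2.60), Ppt1 (-0.43), Asah1 (-0.31) and Hmox1 (-1.04). For the receptors and partners of the chitinase-like family, the change was higher in rcCHIL3 for Tmem219 (0.65) and lower for Lgals3 (-1.23) and Gsn (-0.61).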

How the results depend on the processing

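None of the 178 genes that were chosen by the naming rule and called in rcCHIL3 changed direction under any alternative. Genes named without a call, such as Ttr, were not part of this check. Of 178 named genes called in rcCHIL3, all lost the call under the methods' t-test after Benjamini-Hochberg adjustment, and 39 lost it under at least 1 other alternative (26 and 25 without array 1 or 2 of 3 days, 18 without either array of 7 days, 19 on the deposited scale, 17 with no filter). That t-test called 0 rises and 0 falls in rcCHIL3 (2383 and 2201 at an unadjusted p under 0.05), and 1067 and 753 in MHM + GF. The 2-fold rule asked for a change of at least 2-fold and for arrays of the 2 days that did not overlap. It held for 403 and 338 probe sets in rcCHIL3 and for 838 and 592 in MHM + GF. On the deposited scale, with 21755 probe sets kept, 3644 rose and 1614 fell in rcCHIL3. The difference between the media was higher for 3729 and lower for 1903 there.

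With 1 array left out, the lone array being assumed to vary like the other groups, rises in rcCHIL3 numbered 1722 to 2731 and falls 1656 to 2683, the lowest without rcCHIL3 3 days replicate 2 and replicate 1. Deviations from the group means of arrays with the same replicate number correlated with r of -0.01 to 0.10, so the numbers were not taken to pair cultures. With the replicate number as a block, 2775 rose and 2729 fell in rcCHIL3, and 5199 of the 5273 calls were shared.

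List medians changed sign on the deposited scale for DNA replication (-0.029), myelinating oligodendrocyte (0.15), ribosome biogenesis (0.022), heat shock (0.082) and matrix (0.011). More genes passed the limit on that scale, and DNA replication held 31 in place of 18. With no filter the medians changed sign for DNA replication (-0.12), mural (0.020), TGF-beta (0.13) and Wnt (-0.013), and with a filter of 100 for D cyclins (-0.13) and Wnt (-0.020). With 1 array left out the medians ranged from -0.035 to 0.070 for DNA replication (lowest without replicate 2 of 3 days), from -0.079 to 1.08 for choroid plexus and from -0.0097 to 0.030 for amino acid stress (both lowest without replicate 1 of 3 days), from -0.029 to 0.021 for p53 targets (lowest without replicate 1 of 7 days) and from -0.017 to 0.11 for lysosome (lowest without replicate 2 of 7 days). The cause of these changes was not tested. In simulated data 49 of 67 changes of 1.5-fold were recovered, so changes of that size can be missed with 2 arrays a group. Far fewer probe sets were changed there than were called in these data, so the share missed here may differ.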

Other observations

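Other gene families, chosen after their values were seen and so not tested as groups, also moved between 3 and 7 days in rcCHIL3. All 5 measured annexins, which bind membranes in the presence of calcium, rose, with a median change of 1.19, and in MHM + GF 3 rose and 1 fell, with a median of 0.51. Anxa2 rose from 63 to 294 and Anxa5 from 269 to 805. Of 8 S100 proteins, small calcium-binding proteins that partner annexins, 6 rose and 0 fell in rcCHIL3, with a median of 0.87, and S100a10, the partner of Anxa2, rose from 64.7 to 207. In MHM + GF 7 S100 proteins rose and 1 fell, with a median of 0.85. Of 9 measured cilia and flagella associated proteins, 8 rose and 0 fell, with a median of 0.66, and in MHM + GF 6 rose and 1 fell, with a median of 0.60. The largest rise of this family in rcCHIL3 was that of Cfap126, which reached the limit on the arrays of 7 days only, which fixes its direction. How many other members of these families did so was not counted, so the number of rises is no support by itself. Of 11 Sox factors, 3 rose and 5 fell, and in MHM + GF 5 rose and 3 fell. Over all genes 20.7% rose and 17.9% fell.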
